A study of Mus musculus with 8 samples.

Results

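Described here are 45 genes of synaptic vesicle release and neuronal differentiation, in 2 tissues that flank the dorsal aorta of the mouse embryo. They were chosen by gene symbol, with earlier results of these arrays known, from 24675 named genes. The earlier results had placed 1 member, Syt1, among the genes with the smallest p-values between the tissues, so the tissue differences of the members are given as a description. All 45 have 1 row in the deposited table, and 26 exceeded the median of the array on 4 or more of the 8 arrays and entered the fit, which covered 12416 genes in all.

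The tissues compared were a dorsal one, reaching from the notochord to the roof of the aorta, and a ventral one beneath the vessel, each on 4 arrays labelled as biological replicates 1 to 4. Both came from unmanipulated C57Bl/6 embryos at embryonic day 12.5 and were cut from frozen sections by laser. The labels say that the tissues were taken from the same embryos, but not whether 1 number stands for 1 embryo or for a pool, so the p-values reflect only how far these samples vary. The region, the aorta-gonad-mesonephros, is where blood stem cells arise in the embryo, and sympathetic neurons and chromaffin cells settle beside it. Values are log2 intensities, and differences are ventral minus dorsal. The array medians lay between 3.59 and 3.65, and below them background limits any difference. Values of different genes are not compared with each other, because each gene has its own probes.

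A nerve terminal or a chromaffin cell releases its transmitter when a vesicle fuses with the cell membrane. Fusion is driven by SNARE proteins (syntaxin, SNAP-25 and synaptobrevin) and triggered by calcium through synaptotagmins, while complexins, Rab3, RIM and Munc13 dock and prime the vesicle. Vesicular transporters load the transmitter, and granins fill dense-core granules with peptides. The other members build the growing neuron: neuronal tubulin, stathmins, doublecortin, microtubule-associated proteins, neurofilaments and the Elavl RNA-binding proteins, which are made as neurons leave the cell cycle.

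Start-site sequences of 4 members are shown because they carry letters recognised by regulators of neuronal genes, and that of Syt1 because its difference between the tissues was the largest among the members. RefSeq start-site windows (GRCm38.p6, 250 bases before to 50 after the start) were at hand for 32 of the 45 members, 46 windows in all. Capitals mark matches, searched on both strands, to the left part of the repressor element of the neuronal silencer REST (TTCAGCACC), its right part (GGACAGNGC), the cAMP response element (TGACGTCA) and an E-box bound by proneural factors (CAGCTG). Motifs do not overlap one another in the stretches shown, and that of Unc13a lies just behind the start.
Syt1, chr10:109009112-109009182, minus strand: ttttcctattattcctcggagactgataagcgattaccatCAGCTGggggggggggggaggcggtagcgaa
Slc18a2, chr19:59260824-59260881, plus strand: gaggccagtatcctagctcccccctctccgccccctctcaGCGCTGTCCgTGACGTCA
Scg2, chr1:79440025-79440134, minus strand: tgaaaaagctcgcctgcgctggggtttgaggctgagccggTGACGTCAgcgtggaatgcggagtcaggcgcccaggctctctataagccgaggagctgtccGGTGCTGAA
Syn1, chrX:20921030-20921168, minus strand: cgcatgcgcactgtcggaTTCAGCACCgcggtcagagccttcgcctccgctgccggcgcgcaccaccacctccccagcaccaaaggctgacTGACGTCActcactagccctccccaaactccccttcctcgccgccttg
Unc13a, chr8:71671727-71671752, minus strand: GCGCTGTCCgcgcccccGGTGCTGAA
Over all 32851 windows, 0.371% held the left part of the repressor element, 1.91% the right part, 1.79% the cAMP response element and 16.3% the E-box. Among members, the left part was found in Scg2, Syn1 and Unc13a, the right part in Slc18a2 and Unc13a, the cAMP response element in Scg2, Slc18a2 and Syn1, and the E-box in 15 of 46 windows, those of 12 genes. The motifs were picked with the sequences at hand, and a match is a description of letters, not of binding. Rest itself, the gene of the silencer, stood at 6.63 to 6.96 in dorsal tissue and at 5.75, 6.63, 6.90 and 6.90 in ventral replicates 1 to 4, so its lowest value fell on ventral replicate 1.

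The members did not separate the 2 tissues as a set. Of 45, 19 had a higher mean in ventral and 26 in dorsal tissue, and their median difference was -0.03, against -0.0039 over all genes tested, of which 49.2% were higher in ventral tissue. Without both arrays of replicate number 1 the count with a higher ventral mean was 33 of 45, and without dorsal replicate 1 alone it was 36. The share of all genes was not counted with these arrays left out, so no yardstick stands beside these 2 counts. In limma, with the number as a fixed block, 0 of 26 tested members and 0.0% of all genes passed an adjusted p of 0.05, and the smallest adjusted p of any member was 0.0717. At an unadjusted p under 0.05, 2 of 26 members were higher in ventral tissue (Syt1 and Syp), where 4.08% of all genes were, and 1 was lower (Map2), where 4.18% were.

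**Figure D1:**
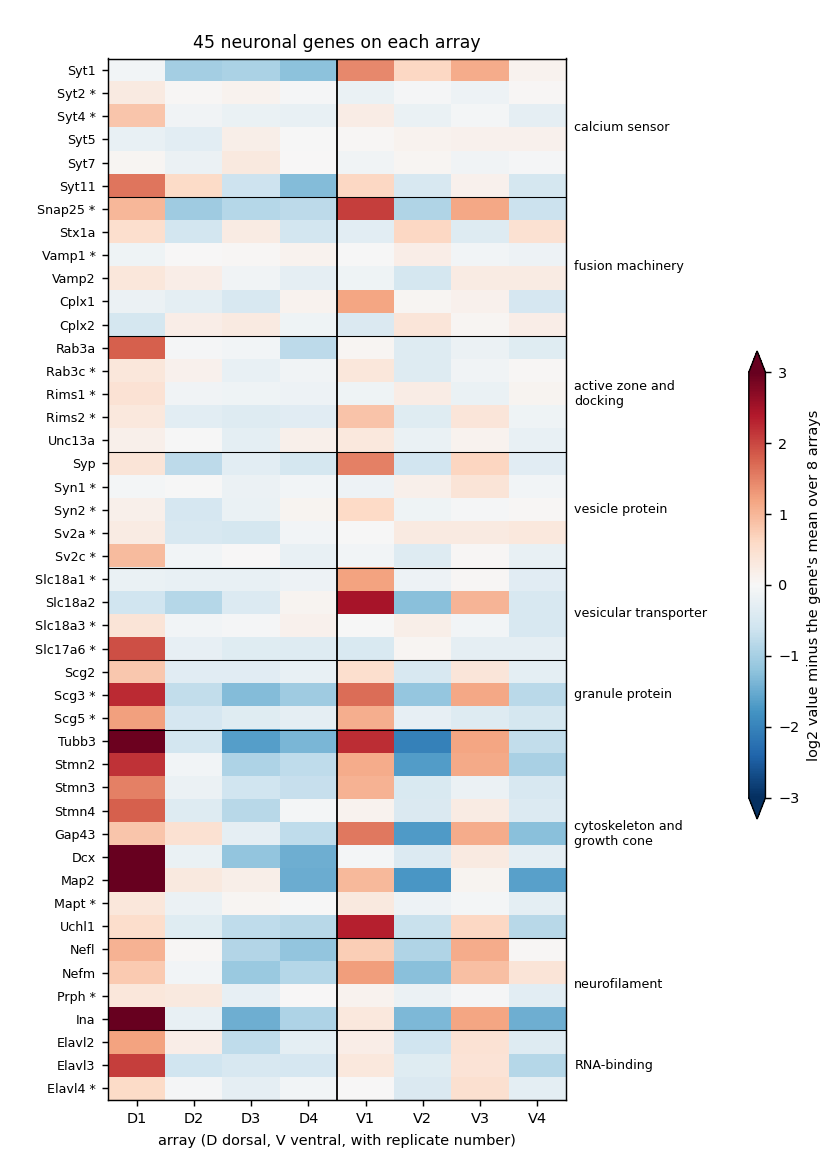
Each row is 1 of the 45 genes, grouped by role, and each column 1 array (D dorsal, V ventral, with the replicate number). Colour gives the log2 value minus the gene's mean over the 8 arrays, with colours saturated beyond 3 in either direction, and an asterisk marks the 19 genes that did not enter the fit. Dorsal replicate 1 is red in most rows and ventral replicates 1 and 3 in many, while dorsal replicates 2 to 4 and ventral replicates 2 and 4 are mostly blue or pale.

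Syt1 was the member that separated the tissues. Synaptotagmin 1, its product, is the calcium sensor of fast vesicle fusion. Its level was 4.28, 3.35, 3.40 and 3.14 in dorsal replicates 1 to 4, and 5.81, 4.99, 5.48 and 4.46 in ventral replicates 1 to 4. Every ventral array lay above every dorsal array, although ventral replicate 4 exceeded dorsal replicate 1 by little. It was the only member of the 45 with such a gap, or 1 of 26 tested (3.85%). Among all genes tested, 2.01% had every ventral array above every dorsal one and 2.38% every ventral array below. A single such member among those tested is thus near the general share. The tissue means were 3.54 ± 0.50 and 5.18 ± 0.59 (SD, n = 4), a difference of 1.64 (SE 0.18), and 3 of the 4 dorsal values lay under the array medians, which limits the difference. By replicate number the difference was 1.53, 1.64, 2.08 and 1.32, above 0 in 4 of 4. Its adjusted p was 0.0717 with the block and 0.159 without it.

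The other synaptotagmins did not share that pattern. Syt11, which lacks calcium binding and acts in membrane traffic, stood at 7.94, 6.90, 5.70 and 5.02 in dorsal replicates 1 to 4 and at 6.94, 5.84, 6.45 and 5.81 in ventral replicates 1 to 4. Its highest value was that of dorsal replicate 1, the groups overlapped, and the difference was -0.13 (SE 0.37), or 0.39 without dorsal replicate 1. Syt4 reached 4.39 in dorsal replicate 1 and lay between 3.26 and 3.77 elsewhere. Syt5 and Syt7 moved within narrow ranges, 3.36 to 3.86 and 3.76 to 4.23, and Syt2, a fast sensor of hindbrain and spinal neurons, stayed under the array medians at 2.95 to 3.40 on all 8 arrays.

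Among the SNARE and complexin genes, Snap25 varied most. It encodes the SNARE that brings a pair of helices to the fusion complex. It stood at 5.08, 3.02, 3.22 and 3.30 in dorsal replicates 1 to 4 and at 6.16, 3.18, 5.24 and 3.43 in ventral replicates 1 to 4. It thus exceeded the array median on 3 arrays, dorsal replicate 1 and ventral replicates 1 and 3, and so did not enter the fit; the tissue means were 3.65 ± 0.96 and 4.50 ± 1.44 (SD, n = 4). The difference of the means, 0.85, was 0.29 without ventral replicate 1. Its partners behaved otherwise. Vamp2, a synaptobrevin that cells outside the nervous system also express, ranged from 6.76 to 7.63 with a difference of -0.08 (SE 0.25). Vamp1, the other neuronal synaptobrevin, stayed at 2.70 to 3.05, under the medians of all arrays. The syntaxin gene Stx1a had its highest value, 4.82, in ventral replicate 2, where Snap25 was low. Complexin genes, whose products clamp and then promote fusion, ranged from 3.95 to 5.64 (Cplx1, highest in ventral replicate 1) and from 4.19 to 5.06 (Cplx2, with its lowest value in dorsal replicate 1 and its next in ventral replicate 1).

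The vesicle protein synaptophysin (Syp), a standard label of vesicles in neurons and neuroendocrine cells, stood at 6.56, 5.39, 5.84 and 5.64 in dorsal replicates 1 to 4 and at 7.67, 5.60, 6.80 and 5.82 in ventral replicates 1 to 4. Ventral replicates 1 and 3 were the highest arrays, while ventral replicates 2 and 4 lay within the dorsal range. The difference was 0.62 (SE 0.23), above 0 in each replicate number, at 1.11, 0.21, 0.96 and 0.18, and its adjusted p was 0.532. It was 0.22 without ventral replicate 1 and 0.91 without ventral replicate 2. The synapsin genes Syn1 and Syn2, which tether vesicles to actin, and the transporter-like Sv2a stayed low, at 2.66 to 3.76. Sv2c reached 4.25 in dorsal replicate 1 and 2.91 to 3.33 elsewhere. Of the docking genes, Rab3a, a small GTPase on synaptic vesicles, stood at 6.18, 4.34, 4.29 and 3.59 in dorsal and 4.43, 4.00, 4.19 and 4.02 in ventral replicates 1 to 4. Its difference of -0.44 (SE 0.34) became 0.09 without dorsal replicate 1. Unc13a, the main Munc13 primer, ranged from 3.52 to 4.11, and Rab3c, Rims1 and Rims2 from 2.74 to 3.98.

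The vesicular transporters show which transmitter a cell stores, and they differed in the arrays where they were high. Slc18a2 (VMAT2), which loads monoamines such as noradrenaline, stood at 4.60, 4.33, 4.79 and 5.28 in dorsal replicates 1 to 4 and at 7.66, 3.92, 6.20 and 4.72 in ventral replicates 1 to 4. Ventral replicate 1 was the highest and ventral replicate 2 the lowest of all 8 arrays. The means were 4.75 ± 0.40 and 5.62 ± 1.65 (SD, n = 4), a difference of 0.88 (SE 0.58) that was 0.15 without replicate number 1. Slc18a1 (VMAT1), the monoamine transporter of chromaffin cells, stood at 3.30, 3.27, 3.27 and 3.34 in dorsal and at 4.69, 3.34, 3.53 and 3.16 in ventral replicates 1 to 4, so that it exceeded the array median in ventral replicate 1 alone. Slc17a6 (VGLUT2), which loads glutamate, stood at 5.21, 3.02, 2.92 and 2.89 in dorsal and at 2.81, 3.33, 3.01 and 3.01 in ventral replicates 1 to 4, above the array median in dorsal replicate 1 alone. Slc18a3, the acetylcholine transporter, stayed under the medians, at 2.66 to 3.51.

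Genes of the granin family were high in dorsal replicate 1 and in ventral replicate 1, and some in ventral replicate 3. Secretogranin 3 (Scg3), which sorts cargo into dense-core granules, stood at 6.28, 3.29, 2.73 and 2.96 in dorsal replicates 1 to 4 and at 5.72, 2.87, 5.19 and 3.23 in ventral replicates 1 to 4. Only dorsal replicate 1 and ventral replicates 1 and 3 exceeded the array medians, and the difference of 0.44 became -0.24 without replicate number 3. Scg2, a precursor of secreted peptides, had the same 3 arrays on top, at 5.05, 4.73 and 4.61, and lay between 3.76 and 4.02 on the other 5. Scg5, a chaperone of the prohormone convertase PC2, reached 4.09 in dorsal replicate 1 and 3.95 in ventral replicate 1, and lay between 2.32 and 2.61 elsewhere.

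**Figure D2:**
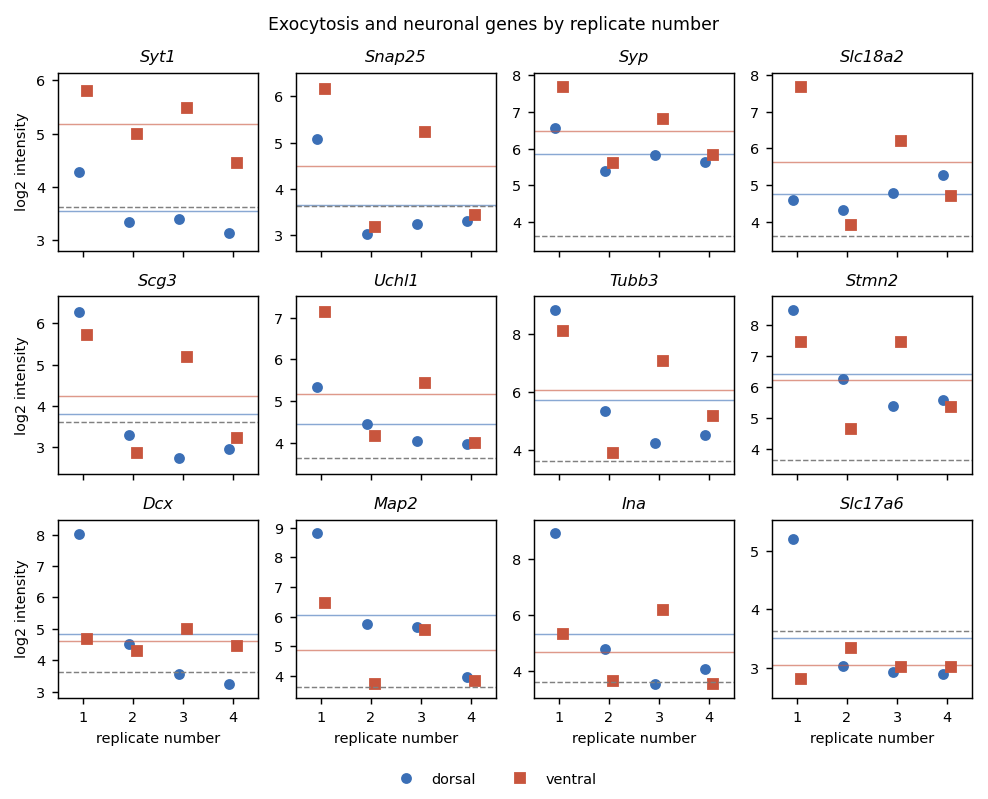
Points give the log2 intensity of 12 genes on each array against the replicate number (circles dorsal, squares ventral). Solid lines are the tissue means, and the dashed line is the mean of the array medians. In Syt1 all squares lie above all circles. In Slc18a2 and Uchl1 the square of number 1 is far above the rest, and in Dcx, Map2, Ina and Slc17a6 the circle of number 1 is.

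Cytoskeletal genes of young neurons varied among arrays of 1 tissue more than between the tissue means. Tubb3, neuronal beta-tubulin, stood at 8.85, 5.34, 4.24 and 4.52 in dorsal replicates 1 to 4 and at 8.11, 3.87, 7.07 and 5.16 in ventral replicates 1 to 4. The means were 5.74 ± 2.12 and 6.05 ± 1.90 (SD, n = 4), a difference of 0.32 (SE 0.64). It turned to -0.52 without replicate number 3 and was 1.35 without dorsal replicate 1. Stmn2, a stathmin that binds tubulin in growth cones, stood at 8.49, 6.25, 5.39 and 5.57 in dorsal and at 7.45, 4.64, 7.46 and 5.35 in ventral replicates 1 to 4. Both genes were high in dorsal replicate 1 and in ventral replicates 1 and 3, and the groups overlapped almost wholly. Gap43, a growth cone membrane protein, stood at 9.57, 9.19, 8.48 and 7.96 in dorsal and at 10.33, 7.04, 9.84 and 7.47 in ventral replicates 1 to 4. Here ventral replicates 1 and 3 were the highest arrays and ventral replicates 2 and 4 the lowest.

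Stmn3, a relative of Stmn2, stood at 7.51, 5.84, 5.43 and 5.33 in dorsal and at 7.07, 5.56, 5.83 and 5.54 in ventral replicates 1 to 4. Stmn4, another stathmin, stood at 5.73, 3.54, 3.08 and 3.87 in dorsal and at 4.02, 3.5, 4.17 and 3.51 in ventral replicates 1 to 4. Both had their highest value in dorsal replicate 1, and the groups overlapped. Their differences, -0.03 (SE 0.21) and -0.26 (SE 0.40), were 0.47 and 0.30 without that array. Uchl1, an abundant ubiquitin hydrolase of neurons, stood at 5.34, 4.44, 4.04 and 3.97 in dorsal and 7.14, 4.15, 5.43 and 3.98 in ventral replicates 1 to 4. Its difference was 0.73 (SE 0.37), 0.37 without replicate number 1 and 0.07 without ventral replicate 1 alone. Mapt, the gene of tau, lay between 3.03 and 3.66 on all 8 arrays.

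Doublecortin, MAP2 and alpha-internexin were highest in a single dorsal array. Dcx, the microtubule protein of migrating and newly formed neurons, stood at 8.03, 4.53, 3.55 and 3.25 in dorsal and at 4.67, 4.30, 5.0 and 4.44 in ventral replicates 1 to 4. Map2, the microtubule protein of dendrites, stood at 8.82, 5.77, 5.65 and 3.98 in dorsal and at 6.45, 3.73, 5.54 and 3.85 in ventral replicates 1 to 4. Ina, the intermediate filament alpha-internexin, stood at 8.93, 4.78, 3.53 and 4.07 in dorsal and at 5.32, 3.66, 6.18 and 3.52 in ventral replicates 1 to 4. Dorsal replicate 1 exceeded each other array in all 3 genes. Map2 had the lowest difference of any member, -1.16 (SE 0.43, adjusted p = 0.532), below 0 in 4 of 4 replicate numbers at -2.37, -2.04, -0.11 and -0.13, and it was -0.24 without dorsal replicate 1. The differences of Dcx, -0.24 (SE 0.74), and Ina, -0.66 (SE 0.86), were 0.83 and 0.54 without that array.

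The neurofilament genes Nefm and Nefl, whose products widen axons, were lowest among ventral arrays in replicate 2. Nefm stood at 9.17, 8.30, 7.28 and 7.53 in dorsal and at 9.65, 7.14, 9.29 and 8.79 in ventral replicates 1 to 4, and Nefl at 6.10, 5.09, 4.17 and 3.86 in dorsal and at 5.79, 4.15, 6.17 and 5.10 in ventral replicates 1 to 4. In both genes dorsal replicate 1 was the highest dorsal array and the groups overlapped. Their differences, 0.65 (SE 0.46) and 0.50 (SE 0.47), were 0.19 and -0.0029 without replicate number 3. Prph, the filament of peripheral and autonomic neurons, stayed under the array medians at 2.94 to 3.60. Of the RNA-binding genes, Elavl3 stood at 7.69, 5.0, 5.13 and 5.11 in dorsal and 5.91, 5.25, 6.02 and 4.75 in ventral replicates 1 to 4. Elavl2 was also highest in dorsal replicate 1, at 5.95 against 3.97 to 5.16 elsewhere, and Elavl4, at 3.63, against 2.62 to 3.54.

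Most members were high on the same few arrays. Dorsal replicate 1 was the highest dorsal array for 36 of 45 members (20 of 26 tested), where 24.7% of all genes tested had it highest. It exceeded the next dorsal array by 1 or more in 17 members (13 of 26 tested), against 1.24% of all genes tested. Ventral replicates 1 and 3 were the 2 highest ventral arrays for 30 of 45 members (21 of 26 tested), against 16.8%. These counts were chosen after the values were seen, and the filter favours genes that are high on some arrays. The spread within a tissue was wide too: the median SD over the tested members was 0.78 in dorsal and 0.59 in ventral tissue, against 0.26 in both over all genes tested.

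**Figure D3:**
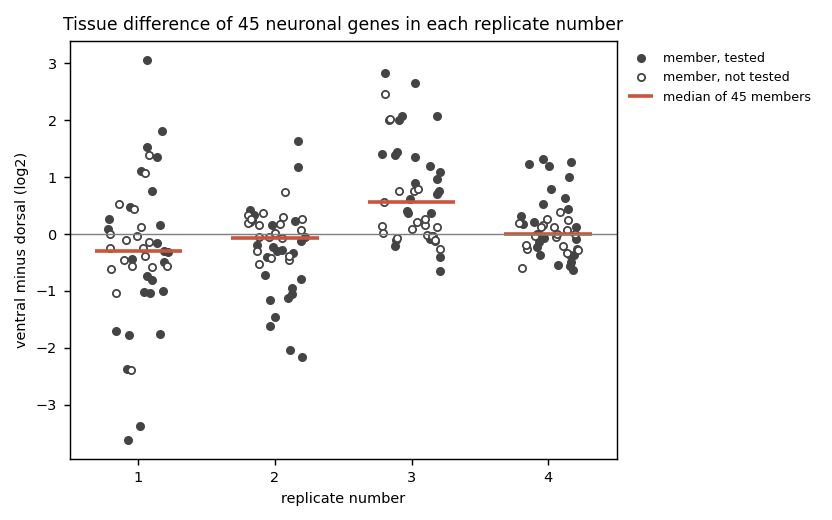
Each point is the ventral minus dorsal difference (log2) of 1 of the 45 genes within a replicate number, filled where the gene entered the fit, and the line is the median of the 45. The medians were -0.30, -0.08, 0.56 and 0.01 in numbers 1 to 4, and points range widest in number 1.

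The tissue difference of the members was not alike in the 4 replicate numbers. Their median difference was -0.30 in number 1, -0.08 in number 2, 0.56 in number 3 and 0.01 in number 4, and 16, 19, 33 and 23 of 45 were higher in ventral tissue. Over all genes tested the medians lay at -0.02, -0.03, -0.0027 and 0.02, and 6025, 5898, 6173 and 6496 of 12416 were higher in ventral tissue. The fit has no residual left to test this difference between numbers. What it can test is whether the dorsal and the ventral array with the same number deviate together. In limma's moderated F test of replicate number, 0 of 26 members and 0.0% of all genes passed an adjusted p of 0.05, with a smallest adjusted p among members of 0.562 (Stmn3). At an unadjusted p under 0.05, 10 of 26 members stood against 6.02% of all genes: Syt1, Syt11, Syp, Scg2, Tubb3, Stmn2, Stmn3, Map2, Uchl1 and Elavl3. Without replicate number 1 it was 1 of 26, against 5.32% of all genes.

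Markers of the sympathoadrenal line, the neural crest cells that form sympathetic neurons and chromaffin cells, were high on ventral replicates 1 and 3. Of 24 genes listed, 21 are in the table and 19 entered the fit. The mean level of these 19 was 4.58 to 5.19 over the dorsal arrays and 6.58, 4.63, 5.94 and 5.14 in ventral replicates 1 to 4. Chgb, a granin of catecholamine granules, stood at 4.40 to 5.97 in dorsal tissue and at 9.79, 4.41, 7.76 and 5.93 in ventral replicates 1 to 4. Dbh, the enzyme that makes noradrenaline, stood at 4.70 to 6.86 in dorsal tissue and at 9.88, 3.94, 8.51 and 6.00 in ventral replicates 1 to 4. Th and Chga were highest on the same pair of arrays, at 8.12 and 6.55 and at 7.95 and 6.06. Slc18a2, Slc18a1, Syp, Uchl1 and Snap25 had their highest value in ventral replicate 1 as well. They were among 13 of 45 members highest on that array. Another 24 members, with Scg2, Scg3 and Scg5 among them, were highest in dorsal replicate 1. The shares of all genes highest on these arrays are not given here. Dorsal replicate 1, the other array with high Tubb3 and Scg3, had Th at 4.40 and Chga at 4.85, beside 4.10 to 4.94 and 4.28 to 4.53 on the other dorsal arrays, and Chgb at its highest dorsal value. The neuropeptide gene Npy stood at 8.29 in dorsal replicate 1 and 7.56 in ventral replicate 1, against 4.08 to 5.10 elsewhere. For 12 of the 19 genes ventral replicates 1 and 3 were the top ventral pair, against 16.8% of all genes tested, and for 10 dorsal replicate 1 was the highest dorsal array, against 24.7%. None of the 19 passed an adjusted p of 0.05; at an unadjusted p under 0.05, 5 were higher in ventral tissue (Chgb, Ddc, Isl1, Ntrk3 and Ret) and 0 lower, where 4.08% and 4.18% of all genes tested were. In these bulk samples, more cells of a type and more RNA per cell cannot be told apart, and the part of sympathoadrenal cells in the member values was not tested.

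Markers of the spinal cord and neural progenitors were high in dorsal replicate 1, though not all of them. Of 24 listed genes, 10 entered the fit, with a mean of 5.60 on that array, 3.89 to 4.12 over dorsal replicates 2 to 4 and 3.90 to 4.48 in ventral tissue. A few large values, such as that of Fabp7, weigh on this mean, and only 6 of the 10 were highest among dorsal arrays in dorsal replicate 1. Sox2, a progenitor factor, stood at 7.83 there and 2.34 to 3.61 in dorsal replicates 2 to 4, with 4.93, 2.82, 4.51 and 2.65 in ventral replicates 1 to 4. Zic1, a factor of dorsal neural tube and somite, stood at 6.72 in dorsal replicate 1 and at 2.81 to 4.03 elsewhere. Fabp7, a lipid carrier of radial glia and of Schwann cell precursors, stood at 11.18 in dorsal replicate 1 and at 3.21 to 5.52 in dorsal replicates 2 to 4. The peptide gene Sst, which is listed with other endocrine cells and not with these markers, stood at 8.24 in dorsal replicate 1 against 3.73 to 5.94. Other progenitor factors stayed under the array medians there: Pax6 at 3.10, Olig2 at 2.60 and Sox1 at 3.46. The choline acetyltransferase gene Chat, a marker of motor neurons, stood at 3.03, and Mnx1, a motor neuron factor, at 3.65 against 3.35 to 3.81 on the other arrays. Schwann and neural crest markers were high on the same 3 arrays as many members. Of 15 listed genes, 10 entered the fit, with a mean of 5.69 in dorsal replicate 1, 5.63 in ventral replicate 1 and 5.16 in ventral replicate 3, and of 4.27 to 4.82 on the other 5 arrays. Fabp7 belongs to this list too, so its 11.18 in dorsal replicate 1 enters both means, while Sox10, a factor of the glial line, ranged from 3.73 to 4.39. Of the Schwann and neural crest markers, Gfra3 is also in the sympathoadrenal list, so those lists are not fully separate. Dorsal replicate 1 was the highest dorsal array for 6 of these 10 genes and for 6 of the 10 spinal cord genes, against 24.7% of all genes tested. Ventral replicates 1 and 3 were the top ventral pair for 7 and 4, against 16.8%. Only 3 of 15 motor and spinal neuron genes, 5 of 13 sensory neuron genes and 3 of 14 genes of other endocrine cells entered the fit. The mean of the 5 sensory genes was 4.34 in dorsal replicate 1 and 4.04 to 4.25 elsewhere, and their factor Pou4f1 had its highest value, 4.81, on that array. No gene of these lists passed an adjusted p of 0.05, and the largest difference in the neural crest list was that of Ednrb, an endothelin receptor (1.09, SE 0.20). The part of these cells in the high values of Ina, Dcx, Map2 and Slc17a6 in dorsal replicate 1, or of members in ventral replicates 1 and 3, was not tested.

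**Figure D4:**
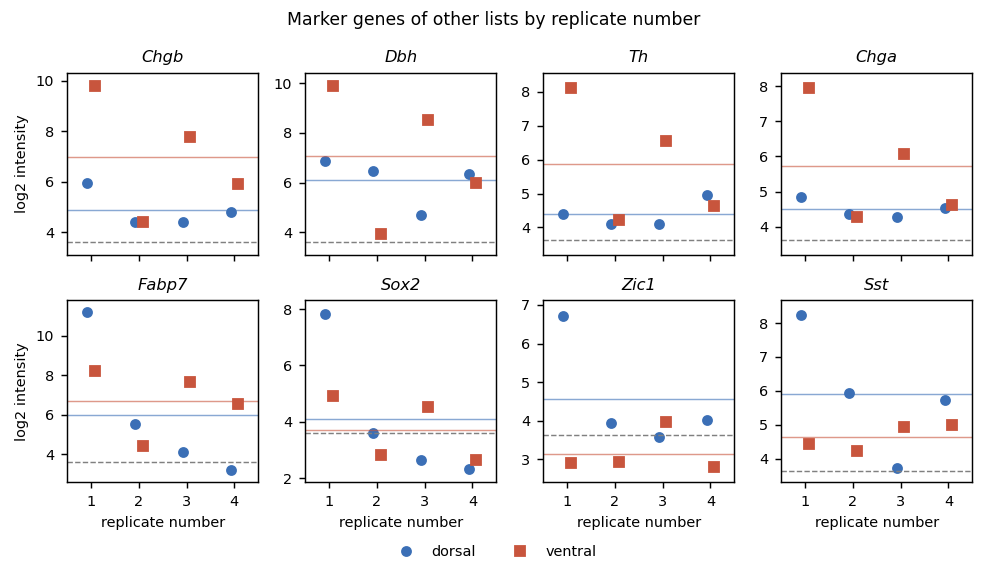
Points give the log2 intensity of 8 marker genes on each array against the replicate number (circles dorsal, squares ventral), with tissue means as solid lines and the mean of the array medians dashed. Chgb, Dbh, Th and Chga have squares 1 and 3 on top, and Fabp7, Sox2, Zic1 and Sst have circle 1 on top.

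Genes of vesicle release outside the 45 were set beside the members. Of 64 listed, 33 entered the fit, and 0 passed an adjusted p of 0.05 in either direction. At an unadjusted p under 0.05, 1 of the 33 was higher in ventral tissue, against 4.08% of all genes tested, and 3 were lower, against 4.18%. The first was Vamp3, a synaptobrevin of most cell types (0.60, SE 0.17), and the 3 were the endocytic GTPase Dnm1 (-0.86, SE 0.19), the clathrin adaptor Snap91 (-0.85, SE 0.26) and the carboxypeptidase Cpe (-0.76, SE 0.25). Dorsal replicate 1 was the highest dorsal array for 13 of the 33, against 24.7% of all genes tested, and ventral replicates 1 and 3 were the top ventral pair for 12, against 16.8%. Of 53 other neuronal differentiation genes, 38 entered the fit, again with 0 past an adjusted p of 0.05, and with 1 higher and 2 lower in ventral tissue at an unadjusted p under 0.05, against 4.08% and 4.18% of all genes. For 33 of the 38 dorsal replicate 1 was the highest dorsal array, and for 19 ventral replicates 1 and 3 were the top ventral pair; whether the 2 lists differ in this was not tested. Gng3, a G protein subunit of neurons, stood at 7.50 in dorsal replicate 1, 7.24 and 6.15 in ventral replicates 1 and 3, and 4.43 to 5.32 elsewhere. The differences of Ebf1 (-1.89, SE 0.40) and Ebf3 (-1.61, SE 0.32), factors of neurons and of mesenchyme, were the largest of that list, and each was higher in dorsal tissue.

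The tissues carried the markers of their position on the same arrays. Pax9, a factor of the somite's vertebral part, stood at 6.06 to 6.83 in dorsal and 4.15 to 4.94 in ventral tissue. Tcf21, a factor of visceral mesenchyme, stood at 2.72 to 3.80 in dorsal and 4.93 to 8.01 in ventral tissue. Dorsal replicate 1 and ventral replicates 1 and 3 thus matched their labels in both genes. Within its tissue, dorsal replicate 1 had the lowest Pax9, 6.06. Ventral replicates 1 and 3 had the lowest ventral Tcf21, 4.93 and 6.08, against 6.61 and 8.01 in ventral replicates 2 and 4. Ventral Pax9 was lowest, at 4.15, in replicate 1 and stood at 4.58 in replicate 3. Gata6 and Pax1, the other position markers, also separated the tissues but did not repeat this order in full. Gata6 stood at 4.92 to 5.65 in dorsal tissue and at 6.20, 6.96, 6.98 and 7.44 in ventral replicates 1 to 4. Pax1 stood at 5.36, 6.72, 6.46 and 5.12 in dorsal replicates 1 to 4 and at 3.36 to 3.91 in ventral tissue. Dorsal Pax1 was thus lowest in replicate 4, and ventral Gata6 in replicate 3 was not below replicate 2. Over the genes tested, the correlation of arrays of 1 tissue was 0.907 to 0.957 for dorsal and 0.907 to 0.948 for ventral tissue, and that of a dorsal with a ventral array 0.907 to 0.936 (across genes, which are not replicates).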

How the data were processed

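RNA of laser-dissected tissue, in the picogram range, was amplified before hybridisation to Affymetrix mouse Gene 2.0 ST arrays, which can add spread for weak genes. The authors deposited log2 values made, per the submitters' processing notes, with Affymetrix Expression Console and RMA (background correction, equal distributions across arrays, 1 value per gene). A difference is thus relative to the other genes. Rows carry Entrez numbers; 24675 of 25429 had 1 symbol in the platform table. Slide and scan batches are not given in the sources used here.

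Genes above the array median on at least 4 of 8 arrays (12416) were fitted with limma 3.58.1 in R 4.3.3 (lmFit, eBayes with trend and robust estimation): tissue plus replicate number as a fixed block, two-sided, Benjamini-Hochberg over all genes tested, threshold 0.05. The fit was tested on simulated data. Same-numbered arrays deviated from their tissue means with r = 0.107, 0.029, 0.022 and 0.12 across genes, against -0.126 to 0.102 for different numbers, so the pairing rests on the labels' word that the tissues share embryos. Members and lists were chosen with earlier results of these data known. Values on every array are given for members that differ by at least 1 between the tissues or span at least 2, and for 8 members set by name. From each list, genes with the smallest p and set markers were named; Sox2, Fabp7, Sst, Gng3, Pax6, Olig2, Sox1 and Chat were named after their values were seen. Some listed genes are not analysed here. Alternatives were the block, filter, normalization, moderation, array weights and leaving out arrays.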

Additional observations from a re-analysis of the deposited data

Results flagged for a closer look

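In each tissue the highest and the lowest array of each of the 45 members was set against the others by Dixon's ratio, the gap to the nearest array over the range of the 4, at the 95% critical value. Of 90 sets of 4 arrays, 10 exceeded it, where the nominal rate is about 1 in 20. That rate is for unrelated sets, whereas the members share the same arrays and most were high on the same few. How many of all genes exceeded it was not counted, so the 10 cannot be judged against chance. Dorsal replicate 1 was the array that stood apart in 9 of the 10, high in each. The ratios were 0.953 for Elavl3, 0.945 for Rims1, 0.943 for Slc17a6, 0.892 for Syt4 and 0.889 for Scg2. They were 0.879 for Rims2, 0.864 for both Snap25 and Scg5, and 0.842 for Scg3. Ventral replicate 1 stood apart for Sv2a, with a ratio of 0.87, as the lowest of 4 close values (3.28 against 3.55 to 3.59). Of these genes only Elavl3 and Scg2 entered the fit, and the dorsal values of Rims2 and all values of Sv2a lay under the array medians.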

How the results depend on the processing

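With or without the block, and in all 20 alternatives tried, limma called 0 members between the tissues, and in the 10 with a replicate number term 0 members for replicate number. Over all genes the tissue count was 0 with the block, 4 with no replicate block, 4 with the replicate block as a random effect, 10 with a filter on means above the 75th percentile, and 0 to 20 with arrays left out (9 without replicate number 1, and, unblocked, 9 without dorsal replicate 4 and 20 without ventral replicate 1). For replicate number the count was 8 with no filter, 3 with that stricter filter, and 0 to 2 with 1 number left out. The median member difference ranged from -0.17 to 0.40 with arrays left out. Members with a higher ventral mean numbered 17 to 36, against 19. Members at an unadjusted p under 0.05 for replicate number (limma F test) numbered 1 to 14, against 10. Both counts were added after the data were seen. For the first, the share of all genes was not counted with arrays left out, and for the second it was 5.32% to 6.19%. Without dorsal replicate 1 the first was 36, and without replicate number 1 the second was 1. Of 17 members followed, 6 (Syt1, Syp, Slc18a2, Uchl1, Nefm and Map2) kept their sign in each alternative that held them and 11 changed it in at least 1. With all 8 arrays kept, the block, filter and moderation settings leave a member's difference as it is. Only normalization, array weights and leaving out arrays could thus change a sign. Syt1 ranged from 1.43 to 1.89, but Syp from 0.22 to 0.91, Slc18a2 from 0.15 to 1.44, Uchl1 from 0.07 to 1.13, Nefm from 0.19 to 1.25 and Map2 from -1.85 to -0.24. The number of arrays, and the array median below which background limits a difference, bound the precision.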
